A study of Homo sapiens with 36 samples.

Results

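The EGFR family is described here through 10 genes of the deposited gene table: the receptor genes EGFR, ERBB2 and ERBB3, the ligand genes AREG, EREG, HBEGF, TGFA and BTC, and the inhibitor genes ERRFI1 and LRIG1. They were taken by gene name from 29744 genes, and all 10 passed the count filter, as did 14988 genes in all. The cells were BxPC-3, an established human line from a pancreatic adenocarcinoma, labelled wild type (WT) and kept in medium with serum. They received MS78, JQ1 or TRAP1, or else TRAP-1-NegP or TRAP-1-NegB, each at 3 µM, or DMSO, the solvent control, and RNA was taken after 2 or 4 h. That made 12 groups of 3 libraries, 36 in all, of a single cell line. TRAP1 (written TRAP-1 in the series title) is the compound here, not the gene of that symbol. JQ1 inhibits the BET bromodomain proteins. The series title treats the remaining compounds as controls of TRAP-1, and the labels do not state what NegB and NegP stand for. The labels number the replicates without saying whether they were separate cultures, so p-values measure the spread between these libraries, which may be technical.

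EGFR, ERBB2 and ERBB3 sit in the cell membrane, pair with each other when a ligand binds, and signal through the RAS-MAPK and PI3K-AKT cascades. The ligands are made as membrane-bound precursors that proteases such as ADAM17 cut loose, so that an epithelial cell can stimulate itself and its neighbours. Several ligand genes and the inhibitor gene ERRFI1 are themselves switched on by MAPK signalling, which closes feedback loops around the receptor. In pancreatic ductal tumours the family is known as a growth-promoting input.

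Total estimated counts per library ran from 15288688 to 26608325. Levels within a gene are CPM values (counts relative to the library total), with the totals adjusted by TMM factors; group means carry the SD, with n = 3. Changes are log2 differences with their SE, and a call is an edgeR quasi-likelihood adjusted p under 0.05. The replicate 1 libraries of TRAP1 at 4 h and of MS78 at 2 h stood apart from their groups; the first had 1287 of the tested genes at 0, against 929 and 503 in the other TRAP1 libraries at 4 h. CDKN1A, a cell-cycle inhibitor gene, measured 7760 CPM with TRAP1 at 4 h against 161 with DMSO. It measured 704 with JQ1, 679 with TRAP-1-NegP, 260 with TRAP-1-NegB and 162 with MS78. No expected CDKN1A level was set for any compound, so these values describe the groups and do not test the labels. As a check of the JQ1 label, HEXIM1, a gene known to rise under BET inhibitors, measured 239.5 with JQ1 at 4 h against 62.2 with DMSO. With TRAP1 it measured 250.3 and with TRAP-1-NegP 191.0, so HEXIM1 cannot tell the JQ1 label from these. The 9 epithelial and ductal markers summed to 8934 to 11973 in TPM (the length-scaled unit of the deposited tables) per library. PTPRC, the pan-leukocyte marker, was at 0 in 32 libraries and PDGFRB in 33, and 8 mesenchymal markers together reached 1.37 to 4.15 TPM. The 8 haematopoietic and endothelial markers, PTPRC among them, together reached 23.2 to 34.3 TPM. CD68 made up most of this, at 17.5 to 27.6 TPM. CD14, CDH5 and CD3E were at 0 in no library either, with medians of 2.49, 2.21 and 0.744 TPM. The same held for the mesenchymal marker COL1A1, with a median of 1.65 TPM. In bulk RNA, fewer cells expressing a gene and less RNA per cell cannot be told apart.

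TMM factors fell to between 0.837 and 0.862 in TRAP1 libraries at 4 h, against 1.01 to 1.03 with DMSO. Scaling by plain library totals, an alternative chosen after the data were seen, moved the median log2 change of all genes to -0.29 for TRAP1 at 4 h, -0.19 for TRAP-1-NegP and -0.14 for JQ1, from -0.02, -0.01 and -0.01. The small changes given below are therefore changes relative to the middle of all genes.

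The upstream sequences of 5 members are shown because the main results turn on these genes: AREG and EREG lie beside each other on chromosome 4 and split by compound, HBEGF and ERRFI1 rose together, and EGFR fell at 2 h. Each is the 250 bases before the annotated start, 5′ to 3′ on the gene's strand, from RefSeq on GRCh38.p14, the build name the submitters give as hg38. Capitals mark a TATA box (TATAAA), a cyclic AMP response element (TGACGTCA) or a GC box (GGGCGG), on either strand, overlapping matches included.
AREG, chr4:74444886-74445135, plus strand: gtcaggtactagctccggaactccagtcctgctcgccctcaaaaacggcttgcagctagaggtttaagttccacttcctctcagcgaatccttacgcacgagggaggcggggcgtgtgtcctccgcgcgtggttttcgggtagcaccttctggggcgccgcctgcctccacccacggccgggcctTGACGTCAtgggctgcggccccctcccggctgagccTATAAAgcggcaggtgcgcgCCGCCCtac
EREG, chr4:74364895-74365144, plus strand: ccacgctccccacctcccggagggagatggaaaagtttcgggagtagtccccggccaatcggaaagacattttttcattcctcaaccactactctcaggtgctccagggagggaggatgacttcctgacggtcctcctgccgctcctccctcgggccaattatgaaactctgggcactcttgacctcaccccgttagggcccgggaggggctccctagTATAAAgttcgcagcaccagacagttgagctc
HBEGF, chr5:140346604-140346853, minus strand: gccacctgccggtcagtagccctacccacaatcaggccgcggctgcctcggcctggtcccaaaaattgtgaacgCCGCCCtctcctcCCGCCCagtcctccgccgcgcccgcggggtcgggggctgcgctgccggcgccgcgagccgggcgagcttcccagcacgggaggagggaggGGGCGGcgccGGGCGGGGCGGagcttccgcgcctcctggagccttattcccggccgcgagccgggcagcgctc
ERRFI1, chr1:8026310-8026559, minus strand: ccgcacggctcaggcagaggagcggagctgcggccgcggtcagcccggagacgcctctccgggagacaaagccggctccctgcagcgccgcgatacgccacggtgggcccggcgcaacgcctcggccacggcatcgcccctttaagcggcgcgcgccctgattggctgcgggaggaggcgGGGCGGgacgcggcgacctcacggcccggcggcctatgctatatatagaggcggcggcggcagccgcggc
EGFR, chr7:55018767-55019016, plus strand: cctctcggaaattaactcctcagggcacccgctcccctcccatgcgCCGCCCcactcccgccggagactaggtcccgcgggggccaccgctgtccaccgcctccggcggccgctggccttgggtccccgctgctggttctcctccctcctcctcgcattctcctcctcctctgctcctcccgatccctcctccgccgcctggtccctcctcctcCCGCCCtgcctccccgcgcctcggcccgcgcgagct

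AREG and EREG were the members with a TATAAA match, which began 29 bases before the start of AREG (position -29) and 32 before that of EREG (position -32). Of 35116 annotated promoters of this length, 10.7% hold one. Only these exact letters were searched, so variants such as the tatatata in the ERRFI1 sequence are unmarked. A missing match therefore does not mean that a TATA box is absent. AREG alone of 9 members held TGACGTCA, at position -65, a match found in 1.65% of promoters. HBEGF held 5 GC boxes, TGFA and LRIG1 3 each, EGFR 2, and AREG and ERRFI1 1 each; 42.6% of promoters hold at least 1. TGANTCA (AP-1; 6.57% of promoters) and CCGGAAG (ETS; 8.52%) each had a match in 1 member, ERBB2, and CACGTG (E-box; 6.34%) had none. The GC content was 73.6% for EGFR, 76.4% for HBEGF, 75.2% for ERRFI1, 65.2% for AREG and 58.0% for EREG, against a median of 58.0% over all promoters. ERBB3 was the member with no entry in the promoter table used. The genes span chr4:74445136-74455005 (AREG), chr4:74365145-74388749 (EREG), chr5:140332843-140346603 (HBEGF), chr1:8011727-8026309 (ERRFI1) and chr7:55019017-55211628 (EGFR), all protein coding.

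Per transcript length, AREG led the family in both control groups. Its mean was 98.3 TPM with DMSO at 2 h, ahead of HBEGF at 59.9, TGFA at 44.6, EGFR at 38.1 and ERRFI1 at 37.7. ERBB3 (23.2), EREG (16.8), ERBB2 (15.2), LRIG1 (6.75) and BTC (2.31) followed in TPM. The related genes outside the 10 were scarcely measured: ERBB4, the remaining ERBB receptor, was at 0 in 22 libraries with at most 11 counts, NRG3 was at 0 in all 36, and EGF had a median of 0.0369 TPM. NRG1, an ERBB3 ligand, was the exception with a median of 25.4 TPM.

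Against DMSO at 2 h, TRAP1 raised 3 of the 10 members (15.7% of all tested genes were called higher) and lowered 2 (14.3% lower). TRAP-1-NegP raised 3 (16.4%) and lowered 3 (13.9%), JQ1 raised 4 (14.8%) and lowered 2 (13.9%), TRAP-1-NegB raised 2 (5.08%) and lowered 1 (5.87%), and MS78 raised 1 (8.30%) and lowered 2 (7.65%). At 4 h TRAP1 raised 6 members (22.2%) and lowered 2 (24.5%). TRAP-1-NegP raised 4 (18.6%) and lowered 2 (18.9%), JQ1 raised 6 (24.3%) and lowered 2 (24.6%), TRAP-1-NegB raised 2 (0.827%) and lowered 0 (0.200%), and MS78 raised 1 (6.23%) and lowered 1 (9.05%). The 6 rises of 10 with TRAP1 and JQ1 at 4 h, the 4 with TRAP-1-NegP at 4 h and JQ1 at 2 h, and the 2 with TRAP-1-NegB at either time are, as shares of 10, more than those shares of all genes. A single call among 10 genes says little. The members were chosen with earlier results of these data known, so this excess is not independent support for a family result. All members but BTC had group means of at least 16.3 CPM. All tested genes include low-count ones, in which changes are harder to call. The members' median change at 4 h was 0.40 with TRAP1, 0.49 with JQ1 and 0.17 with TRAP-1-NegP, where the medians of all genes were -0.02, -0.01 and -0.01. Under plain library totals TRAP1 at 4 h had 5 member calls in place of 8, and its rises went from 6 to 3, those of JQ1 from 6 to 4, while TRAP-1-NegP again had 4 rises and TRAP-1-NegB 2. The share of calls that were rises, over all genes, then moved from 52.4% to 30.1% for TRAP1, 54.2% to 29.8% for TRAP-1-NegP and 51.6% to 35.0% for JQ1 at 2 h. At 4 h it moved from 47.5% to 22.1%, 49.6% to 25.2% and 49.7% to 37.0% for the same compounds, from 80.5% to 59.9% for TRAP-1-NegB and from 40.8% to 63.5% for MS78. All comparisons with DMSO at a given time share the same 3 control libraries.

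**Figure D1:**
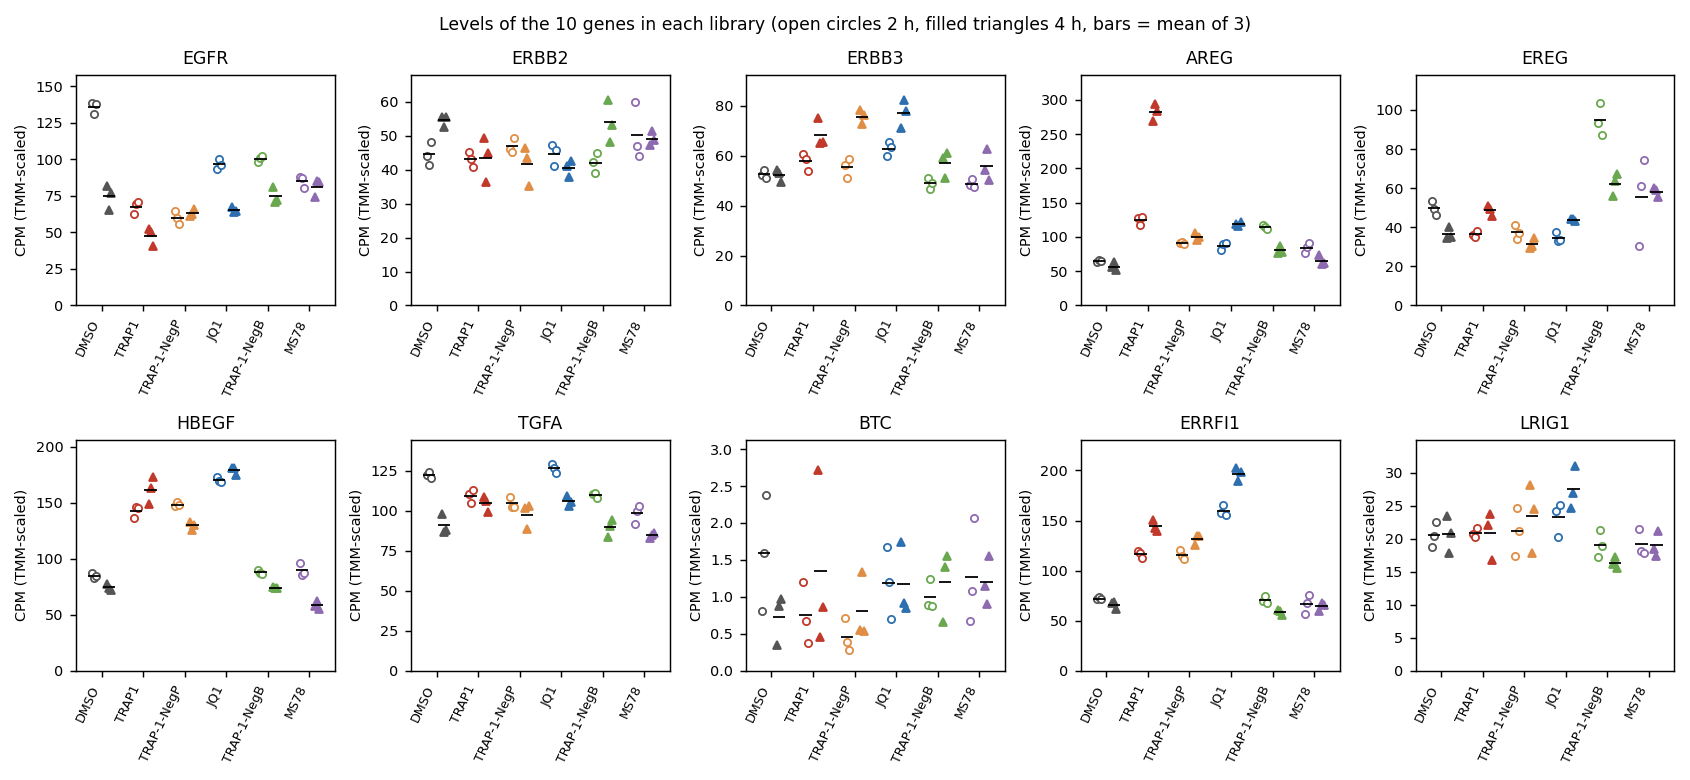
Each panel is 1 member; open circles are single libraries at 2 h, filled triangles those at 4 h and bars their means, by compound on the horizontal axis, with CPM on the vertical axis. AREG with TRAP1 at 4 h (269 to 294 CPM) stands above every other group, and EGFR with DMSO at 2 h (131 to 139 CPM) stands above every compound group.

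EGFR, the receptor bound by all 5 member ligands, was highest in the DMSO group at 2 h and lower with all 5 compounds at that time. The DMSO libraries at 2 h measured 139, 131 and 138 CPM. TRAP1 gave 62.5, 69.7 and 70.6, and TRAP-1-NegP gave 64.6, 59.7 and 55.7. JQ1 gave 93.1, 101 and 95.8. All 9 of these treated libraries lay below every control. The level fell by 1.01 ± 0.082 on the log2 scale with TRAP1 (2.01-fold lower, adjusted p = 7.39e-15), by 1.18 ± 0.083 with TRAP-1-NegP (2.27-fold lower, adjusted p = 3.62e-17) and by 0.49 ± 0.081 with JQ1 (adjusted p = 2.07e-06). TRAP-1-NegB (98.0, 101 and 102 CPM) and MS78 (88.0, 86.9 and 80.2 CPM) were also below control, with falls of 0.44 ± 0.081 (adjusted p = 6.85e-05) and 0.68 ± 0.081 (adjusted p = 1.25e-08).

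By 4 h the EGFR level of the control itself was lower, at 81.7, 65.4 and 77.2 CPM, a fall of 0.86 ± 0.082 on the log2 scale from the 2 h control (adjusted p = 4.23e-11). TRAP1 measured 52.2, 50.1 and 40.8 CPM, below every control, and the fall was 0.65 ± 0.084 (adjusted p = 3.89e-09). TRAP-1-NegP (61.2, 62.6 and 66.3 CPM) and JQ1 (67.5, 64.2 and 64.6 CPM) overlapped the control range. Their changes were -0.24 ± 0.083 (adjusted p = 0.0182) and -0.19 ± 0.083 (adjusted p = 0.0499). These 2 calls are weak. The TRAP-1-NegP call was lost without replicate 1 (-0.17, adjusted p = 0.148) or 3 of DMSO or replicate 1 or 2 of TRAP-1-NegP. The JQ1 call was lost without replicate 1 (-0.12, adjusted p = 0.279) or 3 of DMSO or without any single JQ1 library. With plain library totals the values were -0.42 and -0.32. TRAP-1-NegB (-0.0030, 95% interval -0.17 to 0.16) and MS78 (0.12, -0.04 to 0.29) did not pass the test at 4 h. In CPM the order of the 12 groups ran from TRAP1 at 4 h (47.7 ± 6.06) to DMSO at 2 h (136 ± 4.18), and the groups between 60.0 and 67.6 CPM, TRAP-1-NegP at both times, JQ1 at 4 h and TRAP1 at 2 h, overlapped in their libraries.

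ERBB2, the receptor that binds no ligand of its own and serves as partner, passed the test against DMSO with no compound at 2 h. At 4 h the controls measured 55.5, 52.6 and 55.5 CPM. JQ1 gave 41.1, 37.8 and 42.5, TRAP-1-NegP 46.3, 43.6 and 35.3, and TRAP1 49.4, 36.3 and 44.9, each set below the controls. The falls were 0.43 ± 0.11 with JQ1 (adjusted p = 6.24e-04), 0.39 ± 0.11 with TRAP-1-NegP (adjusted p = 0.00301) and 0.33 ± 0.11 with TRAP1 (adjusted p = 0.00946). Single libraries decided 2 of these: without TRAP1 replicate 2 the change was -0.21 (adjusted p = 0.137), and without TRAP-1-NegP replicate 3 it was -0.28 (adjusted p = 0.0547). With plain library totals the TRAP1 value was -0.59. MIEN1, a gene that overlaps ERBB2 and had 407 to 1007 counts per library, could share reads with it, since no source used here states the strand setting of the counting.

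ERBB3, which has little kinase activity and recruits PI3K, rose at 4 h with the compounds that lowered ERBB2. The controls measured 54.4, 53.0 and 49.4 CPM, JQ1 71.2, 82.4 and 78.0, TRAP-1-NegP 78.2, 72.7 and 76.2, and TRAP1 75.3, 64.9 and 65.4, all above every control. The rises were 0.56 ± 0.086 (adjusted p = 1.60e-07), 0.53 ± 0.086 (adjusted p = 9.53e-07) and 0.39 ± 0.086 (adjusted p = 1.32e-04). Under plain library totals the TRAP1 value was 0.12 (adjusted p = 0.245). At 2 h the JQ1 rise of 0.26 ± 0.086 (adjusted p = 0.0156) turned to -0.12 (adjusted p = 0.420) on length-scaled counts, and it was lost without DMSO replicate 3 (0.24, adjusted p = 0.0618) or JQ1 replicate 2 (0.23, adjusted p = 0.0715), and with plain library totals (0.18, adjusted p = 0.126). The 2 annotated ERBB3 transcripts also shifted in share: the short form made up 45.6% of the gene's TPM with DMSO at 2 h (42.2% to 47.5%) and less with every compound, with no library in the DMSO range. It was 23.7% with JQ1 (19.4% to 27.7%), 28.3% with TRAP1 (27.1% to 30.5%), 28.4% with TRAP-1-NegP (21.2% to 36.4%), 30.2% with MS78 (25.1% to 36.6%) and 30.8% with TRAP-1-NegB (17.1% to 39.5%). At 4 h the short form stood at 39.0% with DMSO (29.3% to 47.6%), 44.0% with TRAP-1-NegB, 39.3% with TRAP1, 34.1% with JQ1, 33.8% with TRAP-1-NegP and 29.2% with MS78, and every compound group overlapped the DMSO range.

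AREG, which codes for amphiregulin, a low-affinity EGFR ligand, showed the largest rise of the family. It was above the DMSO libraries of its time in all 15 treated libraries at 2 h and in all TRAP1, TRAP-1-NegP, JQ1 and TRAP-1-NegB libraries at 4 h. At 4 h the controls measured 56.0, 63.2 and 51.0 CPM, and TRAP1 gave 269, 294 and 284, with no TRAP1 library near any other group. That is a 4.98-fold level, a log2 change of 2.32 ± 0.077 (adjusted p = 9.87e-32). JQ1 gave 118, 116 and 122 CPM (1.07 ± 0.076, adjusted p = 8.84e-18), and TRAP-1-NegP 105, 95.0 and 100.3 CPM (0.82 ± 0.076, adjusted p = 3.09e-13). TRAP-1-NegB reached 76.0, 86.6 and 78.2 CPM (0.50 ± 0.076, adjusted p = 1.04e-05), and MS78 overlapped the controls at 73.1, 60.7 and 62.3 CPM (0.21 ± 0.076, adjusted p = 0.0586). The MS78 value passed without DMSO replicate 2 (0.29, adjusted p = 0.0180) or MS78 replicate 2 (0.26, adjusted p = 0.0366). It also passed with DESeq2 size factors (adjusted p = 0.0400), plain library totals (0.00889), the Wald test (0.0211), no count filter (0.0416) and without both libraries that stood apart (0.0210).

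The order of compounds for AREG was different at 2 h. The controls measured 63.2, 66.5 and 64.8 CPM, TRAP1 128, 117 and 129, and TRAP-1-NegB 118, 115 and 111. TRAP-1-NegP followed at 90.6, 92.9 and 89.2 CPM, JQ1 at 80.3, 89.0 and 90.6, and MS78 at 76.8, 85.9 and 90.5. TRAP1 and TRAP-1-NegB lay above all the rest and overlapped each other, and the last 3 compounds overlapped among themselves. The rises were 0.94 ± 0.075 with TRAP1 (adjusted p = 2.82e-15), 0.82 ± 0.075 with TRAP-1-NegB (adjusted p = 2.24e-12), 0.49 ± 0.075 with TRAP-1-NegP (adjusted p = 6.67e-07), 0.42 ± 0.075 with JQ1 (adjusted p = 1.19e-05) and 0.38 ± 0.075 with MS78 (adjusted p = 1.99e-04). The MS78 call was lost when the 2 groups were fitted alone (adjusted p = 0.0722).

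HBEGF, the gene of heparin-binding EGF-like growth factor, divided the compounds into those that raised it and those that did not. At 2 h the controls measured 86.9, 83.2 and 84.8 CPM. JQ1 gave 173, 169 and 168, TRAP-1-NegP 147, 150.2 and 148, and TRAP1 136, 146 and 145, all far above control. TRAP-1-NegB (89.6, 87.5 and 86.1 CPM) and MS78 (95.7, 85.3 and 87.6 CPM) overlapped the controls. The rises were 1.00 ± 0.063 with JQ1 (adjusted p = 3.83e-19), 0.80 ± 0.063 with TRAP-1-NegP (adjusted p = 1.95e-15) and 0.74 ± 0.063 with TRAP1 (adjusted p = 2.44e-14). For TRAP-1-NegB the change was 0.05 (95% interval -0.08 to 0.17).

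At 4 h HBEGF stood at 77.6, 74.1 and 71.8 CPM in the controls, 181, 181 and 175 with JQ1, 149, 163 and 173 with TRAP1, and 133, 125 and 130.4 with TRAP-1-NegP. The 3 treated groups lay above the controls and did not overlap each other. The rises were 1.26 ± 0.064 (adjusted p = 7.90e-24), 1.12 ± 0.064 (adjusted p = 1.39e-21) and 0.80 ± 0.064 (adjusted p = 1.52e-15). MS78 was below every control at 57.5, 62.5 and 55.1 CPM, a fall of 0.35 ± 0.065 (adjusted p = 7.51e-05). TRAP-1-NegB changed by -0.01 (95% interval -0.14 to 0.12).

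EREG, the gene of epiregulin, is the neighbour of AREG on chromosome 4 and followed it only in part. Both were called higher with TRAP-1-NegB at both times and with TRAP1 at 4 h. With TRAP1 and JQ1 at 2 h EREG was called lower while AREG was called higher. The highest EREG group was TRAP-1-NegB at 2 h, with 93.5, 104 and 87.2 CPM against 53.6, 49.4 and 46.1 in the controls, a rise of 0.93 ± 0.16 (adjusted p = 1.18e-04). TRAP1 (35.9, 35.1 and 38.2 CPM) and JQ1 (37.7, 33.0 and 33.3 CPM) lay below every control at 2 h. Their falls were 0.45 ± 0.16 (adjusted p = 0.0380) and 0.52 ± 0.16 (adjusted p = 0.0160). TRAP-1-NegP, at 41.0, 33.8 and 37.3 CPM, had a similar value of -0.41 ± 0.17 that did not pass (adjusted p = 0.0591). The spread of EREG was set largely by MS78 at 2 h, where the libraries measured 30.6, 60.9 and 74.3 CPM. Without both libraries that stood apart, TRAP-1-NegP passed at -0.41 (adjusted p = 1.22e-04) and MS78 at 0.45 (adjusted p = 4.13e-04).

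At 4 h EREG measured 34.2, 40.0 and 35.2 CPM in the controls, and 56.1, 63.8 and 67.0 with TRAP-1-NegB, 60.1, 59.0 and 55.3 with MS78 and 50.9, 49.3 and 45.7 with TRAP1, all above them. The rises were 0.77 ± 0.16 (adjusted p = 0.00965), 0.67 ± 0.16 (adjusted p = 0.00461) and 0.42 ± 0.17 (adjusted p = 0.0390). The TRAP1 calls for EREG were fragile. At 4 h the call was lost without replicate 1 (0.37, adjusted p = 0.120) or 3 of DMSO, without replicate 1 or 2 of TRAP1, and with plain library totals (0.15, adjusted p = 0.531). At 2 h it was lost without replicate 1 (-0.39, adjusted p = 0.127) or 2 of DMSO or without any single TRAP1 library. The JQ1 call at 2 h was lost without DMSO replicate 1 (-0.46, adjusted p = 0.0663) or JQ1 replicate 2 or 3, and the TRAP-1-NegB call at 4 h without replicate 1 or 3 of DMSO (0.75, adjusted p = 0.0713 without the latter) or replicate 3 of TRAP-1-NegB.

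TGFA, the gene of transforming growth factor alpha, a classical EGFR ligand, moved little. The 2 h controls measured 123, 125 and 121 CPM, TRAP-1-NegP 109, 103 and 103, and MS78 92.0, 100.1 and 103. Both treated groups lay below the controls, with falls of 0.23 ± 0.066 (adjusted p = 0.00564; -0.37 with plain library totals) and 0.32 ± 0.066 (adjusted p = 3.70e-04); the MS78 call was lost when those 2 groups were fitted alone (adjusted p = 0.0753). TRAP1 at 2 h (111, 105 and 113 CPM) did not pass (-0.16, adjusted p = 0.0555), but did with plain totals (-0.29, adjusted p = 7.13e-04). At 4 h TRAP1 (109, 106 and 99.2 CPM) and JQ1 (109, 103 and 106 CPM) were just above the controls (98.1, 86.5 and 87.8 CPM), by 0.20 ± 0.067 (adjusted p = 0.00937) and 0.22 ± 0.067 (adjusted p = 0.00460). Scaled by plain library totals the TRAP1 value turned to -0.065 (adjusted p = 0.458), and the JQ1 value kept its direction but lost its call (0.09, adjusted p = 0.274). In TPM TGFA was 29.9 with DMSO, 27.0 with TRAP1 and 33.3 with JQ1 at 4 h. The TRAP1 call was also lost without DMSO replicate 2 (0.17, adjusted p = 0.0609) or TRAP1 replicate 1 (0.18, adjusted p = 0.0507).

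BTC, the betacellulin gene, was at the edge of detection, between 0.284 and 2.72 CPM over the 36 libraries. With TRAP-1-NegP at 2 h it measured 0.717, 0.385 and 0.284 CPM against 0.812, 1.60 and 2.38 in the controls, a fall of 1.79 ± 0.70 (adjusted p = 0.0434). That call was lost without replicate 3 (-1.38, adjusted p = 0.193) or 2 of DMSO or replicate 2 or 3 of TRAP-1-NegP. No other comparison with DMSO called BTC, and a change smaller than its wide intervals, -0.47 to 2.22 for TRAP1 at 4 h, was not detectable at this depth.

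In TPM, which allows genes to be added, the 5 ligands together made 167 ± 10.3 with DMSO and 426 ± 13.4 with TRAP1 at 4 h. The deposited TPM values carry no TMM factors, so differences between groups here are not on the scale of the CPM changes above. JQ1 made 313 ± 1.93, TRAP-1-NegP 227 ± 7.59, TRAP-1-NegB 205 ± 9.58 and MS78 195 ± 10.8 at that time. The AREG share of this sum was 46.4% ± 2.54 with DMSO, 50.0% ± 1.04 with JQ1 and 52.2% ± 0.521 with TRAP-1-NegP. It was 53.1% ± 1.57 with TRAP-1-NegB, 51.5% ± 2.74 with MS78 and 71.7% ± 0.700 with TRAP1. The HBEGF share was 28.4% ± 1.31 with DMSO, 34.8% ± 0.830 with JQ1 and 31.4% ± 0.370 with TRAP-1-NegP. It was 22.7% ± 1.21 with TRAP-1-NegB, 21.3% ± 1.80 with MS78 and 18.9% ± 0.984 with TRAP1. AREG was thus the largest part of the ligand sum in every group at 4 h, with its highest share under TRAP1. At 2 h the sums were 222 ± 1.56 with DMSO, 333 ± 13.9 with TRAP-1-NegB, 318 ± 11.0 with TRAP1, 308 ± 5.96 with JQ1, 259 ± 3.58 with TRAP-1-NegP and 253 ± 33.0 with MS78. TRAP-1-NegB and TRAP1 overlapped by their SD, while JQ1 reached its sum with more HBEGF (38.6% against 29.4% with TRAP1) and less AREG (42.1% against 55.0%).

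**Figure D2:**
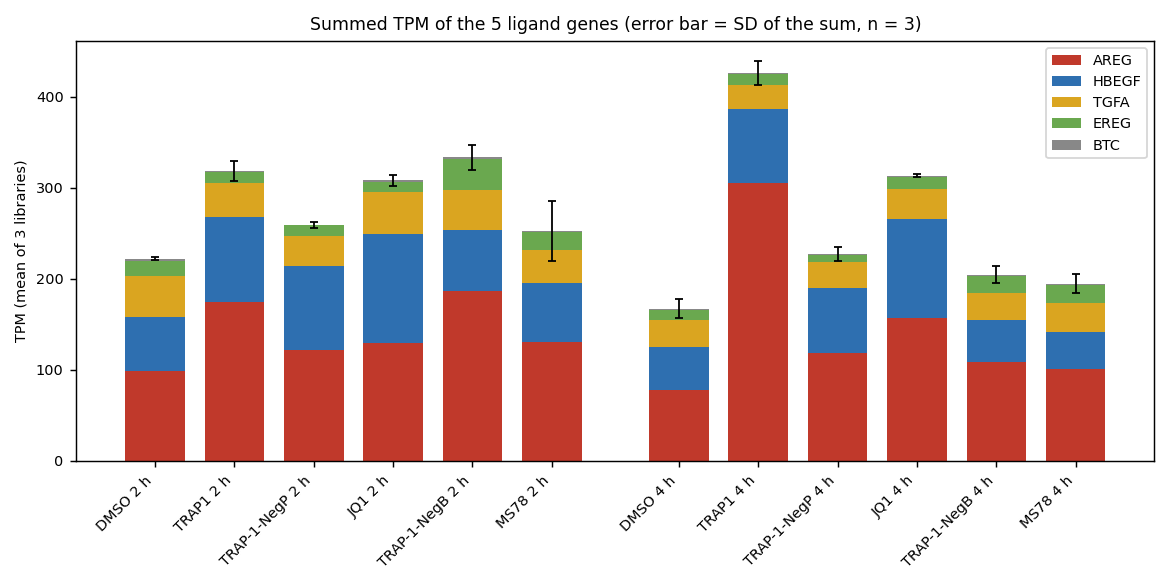
Stacked bars give the mean TPM of the 5 ligand genes in each group of 3 libraries, starting at 0, with compound and time on the horizontal axis and the SD of the sum as error bar. The bar of TRAP1 at 4 h is the tallest at 426 TPM, of which AREG is 306. TPM values carry no TMM factors.

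ERRFI1, whose product (MIG6) binds the EGFR kinase domain and blocks it, rose with TRAP1, TRAP-1-NegP and JQ1 at both times. The 2 h controls measured 71.3, 73.5 and 71.4 CPM, JQ1 157, 166 and 155, TRAP1 119.7, 118 and 112, and TRAP-1-NegP 120.1, 115 and 111. TRAP1 and TRAP-1-NegP overlapped each other and lay between the controls and JQ1. The rises were 1.15 ± 0.073 with JQ1 (adjusted p = 6.84e-19), 0.70 ± 0.073 with TRAP1 (adjusted p = 3.03e-11) and 0.68 ± 0.073 with TRAP-1-NegP (adjusted p = 6.78e-11). At 4 h JQ1 measured 202, 189.5 and 198 CPM, TRAP1 151, 142 and 139.8, and TRAP-1-NegP 126, 134 and 134, against 68.1, 68.3 and 61.2 in the controls. JQ1 was again the highest, at a 2.99-fold level (1.58 ± 0.074, adjusted p = 3.76e-25), with TRAP1 at 2.19-fold (1.13 ± 0.074, adjusted p = 3.37e-19) and TRAP-1-NegP at 2.00-fold (1.00 ± 0.074, adjusted p = 9.39e-17). TRAP-1-NegB gave -0.03 at 2 h and -0.16 at 4 h, and MS78 gave -0.11 and -0.03, none of which passed, though MS78 at 2 h did without its replicate 3 (-0.22, adjusted p = 0.0367).

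LRIG1, a membrane protein that promotes breakdown of EGFR-family receptors, stayed between 15.6 and 31.0 CPM in all libraries. JQ1 at 4 h measured 24.6, 26.9 and 31.0 CPM against 23.4, 17.8 and 20.9 in the controls, a rise of 0.41 ± 0.15 (adjusted p = 0.0168). The groups did not overlap, but the call was lost without DMSO replicate 2 (0.31, adjusted p = 0.118) or JQ1 replicate 3 (0.31, adjusted p = 0.111), and with plain library totals (0.28, adjusted p = 0.109). SLC25A26, which overlaps LRIG1, had 194 to 465 counts per library. The other 9 comparisons with DMSO did not call LRIG1.

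**Figure D3:**
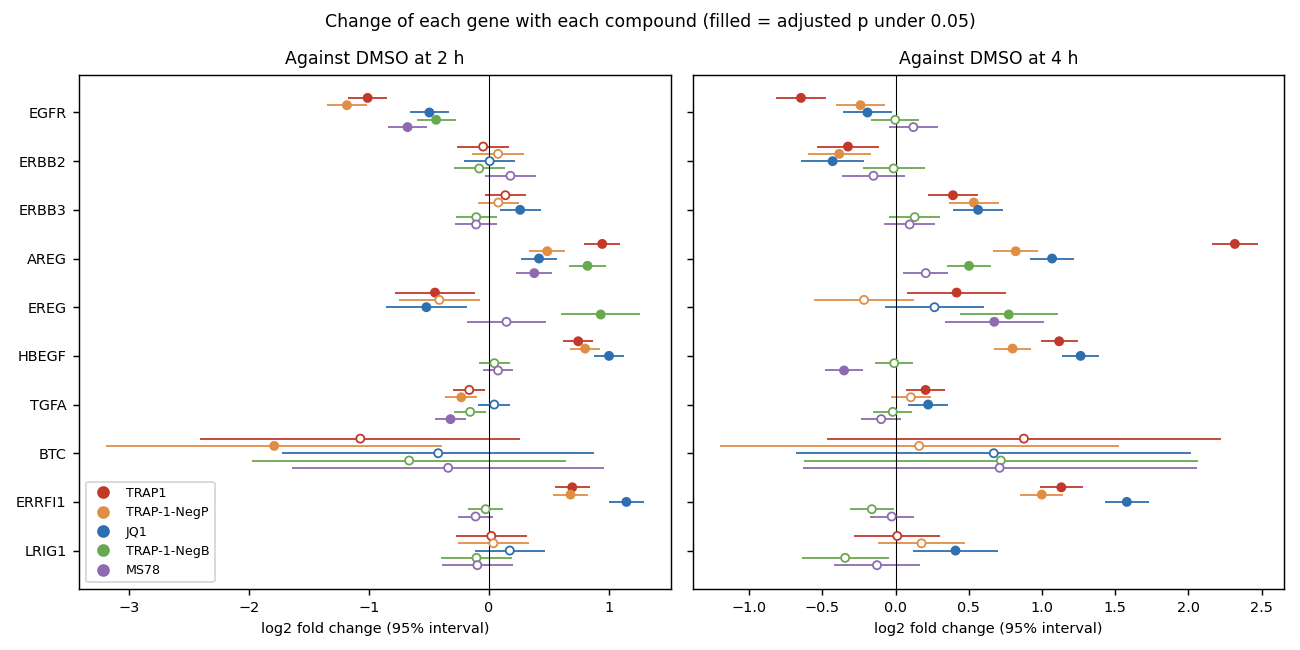
Log2 change of each member against DMSO of the same time, with 95% intervals, for the 5 compounds; filled symbols have an adjusted p under 0.05, and the 2 h and 4 h axes have different ranges. HBEGF and ERRFI1 lie to the right with TRAP1, TRAP-1-NegP and JQ1 and near 0 or left of it with TRAP-1-NegB and MS78, and AREG with TRAP1 at 4 h (2.32) lies farthest right among the called values.

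The compounds were next compared with each other at the same dose and time. TRAP1 and TRAP-1-NegP differed in 1 member at 2 h (0.801% of all genes were called in either direction), AREG, which was 0.46 ± 0.074 higher with TRAP1 (adjusted p = 6.02e-05). For EGFR the difference was 0.17 (95% interval 0.00 to 0.34), for HBEGF -0.06 (-0.18 to 0.07) and for ERRFI1 0.01 (-0.13 to 0.16), and none passed. At 4 h they differed in 4 members (15.3% of all genes). AREG was 1.50 ± 0.074 higher with TRAP1 (adjusted p = 5.42e-23), EREG 0.63 ± 0.17 higher (adjusted p = 0.00864) and HBEGF 0.32 ± 0.062 higher (adjusted p = 1.45e-04), while EGFR was lower by -0.41 ± 0.084 (adjusted p = 3.46e-04). ERRFI1 did not pass at 4 h (0.13, -0.01 to 0.28).

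TRAP1 and JQ1 differed in 4 members at 2 h (1.99% of all genes) and in 4 at 4 h (27.4%). With TRAP1, EGFR was lower at both times (-0.51 ± 0.082, adjusted p = 3.44e-05, and -0.45 ± 0.084, adjusted p = 3.10e-05). ERRFI1 was lower too (-0.45 at both times, adjusted p = 3.13e-05 and 2.09e-06). AREG was higher, by 0.53 ± 0.074 at 2 h (adjusted p = 2.39e-06) and 1.25 ± 0.074 at 4 h (adjusted p = 4.38e-20). HBEGF was lower at 2 h (-0.26 ± 0.062, adjusted p = 0.0127), a call lost without replicate 1 of TRAP1 (-0.22, adjusted p = 0.135) or of JQ1 (-0.24, adjusted p = 0.0888). LRIG1 was lower at 4 h (-0.40 ± 0.15, adjusted p = 0.0349), lost without TRAP1 replicate 3 (-0.27, adjusted p = 0.224) or JQ1 replicate 2 or 3. HBEGF at 4 h did not pass (-0.15, -0.27 to -0.02; adjusted p = 0.0703), but it did with plain library totals (-0.29, adjusted p = 1.26e-04) or without TRAP1 replicate 3 (-0.20, adjusted p = 0.0279). ERBB3 at 4 h passed without TRAP1 replicate 1 (-0.24, adjusted p = 0.0465).

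JQ1 and TRAP-1-NegP differed in 4 members at 2 h (12.9%) and 4 at 4 h (25.7%), every one higher with JQ1. ERRFI1 was 0.47 higher at 2 h (adjusted p = 1.07e-05) and 0.58 at 4 h (adjusted p = 2.30e-08). HBEGF was 0.20 higher at 2 h (adjusted p = 0.0232) and 0.46 at 4 h (adjusted p = 1.36e-07); the 2 h call was lost without replicate 1 (0.19, adjusted p = 0.0879) or 2 of JQ1 or replicate 1 or 3 of TRAP-1-NegP. EGFR (0.69, adjusted p = 6.76e-08) and TGFA (0.27, adjusted p = 0.00320) were higher at 2 h. AREG (0.25, adjusted p = 0.00973) and EREG (0.48, adjusted p = 0.0334) were higher at 4 h; AREG lost its call without TRAP-1-NegP replicate 2 (0.21, adjusted p = 0.0630), and EREG without any single JQ1 library or replicate 1 (0.44, adjusted p = 0.107) or 2 of TRAP-1-NegP. For EGFR at 4 h the difference was 0.05 (-0.12 to 0.22).

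TRAP1 and TRAP-1-NegB differed in 5 members at 2 h (20.7%) and in 8 at 4 h (46.1%). At 2 h EREG was lower with TRAP1 (-1.38 ± 0.16, adjusted p = 1.32e-07), as was EGFR (-0.57 ± 0.082, adjusted p = 2.38e-07), and HBEGF (0.70) and ERRFI1 (0.72) were higher (adjusted p = 3.33e-13 and 1.63e-11). AREG did not pass at 2 h (0.12, -0.02 to 0.27) and was 1.82 ± 0.075 higher with TRAP1 at 4 h (adjusted p = 2.81e-27). At 4 h HBEGF (1.13), ERRFI1 (1.29), TGFA (0.22), ERBB3 (0.26) and LRIG1 (0.36) were also higher with TRAP1, and EGFR (-0.64) and ERBB2 (-0.31) lower; the libraries overlapped for LRIG1 and ERBB2. Plain library totals made the TGFA difference -0.012, that of ERBB2 -0.55, that of ERBB3 0.03 (adjusted p = 0.831) and 0.10 at 2 h (adjusted p = 0.520), and that of LRIG1 0.12 (adjusted p = 0.530), and EREG passed at 4 h (-0.59, adjusted p = 0.00691). Of 9 alternative settings, plain totals among them, 5 kept the LRIG1 call at 4 h and 6 kept the ERBB3 call at each time. The ERBB3 call at 2 h (0.24) was lost without TRAP1 replicate 1 (0.20, adjusted p = 0.166) or 2 or TRAP-1-NegB replicate 2 or 3. At 4 h the ERBB2 call was lost without TRAP1 replicate 2 (-0.19, adjusted p = 0.168) or TRAP-1-NegB replicate 1, that of ERBB3 without TRAP1 replicate 1 or TRAP-1-NegB replicate 2 (0.19, adjusted p = 0.0985), and that of LRIG1 without TRAP1 replicate 1 or 2 (0.25, adjusted p = 0.215) or any single TRAP-1-NegB library.

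TRAP1 and MS78 differed in 6 members at each time (22.6% and 49.3% of all genes). At 4 h AREG (2.11), HBEGF (1.47), ERRFI1 (1.16), TGFA (0.30) and ERBB3 (0.30; 0.47 on length-scaled counts) were higher with TRAP1 and EGFR (-0.77) lower. Under plain library totals TGFA (-0.038) and ERBB3 (-0.046) changed sign, and ERBB2 passed (-0.52, adjusted p = 3.76e-05), as it did without TRAP1 replicate 1 (-0.28, adjusted p = 0.0470). At 2 h AREG (0.57), HBEGF (0.67), ERRFI1 (0.81) and ERBB3 (0.24) were higher, and EGFR (-0.33) and EREG (-0.60) lower. The EREG groups overlapped, and the value was -0.89 without both libraries that stood apart, while the call was lost without MS78 replicate 3 (-0.32, adjusted p = 0.105); the ERBB3 call was lost without replicate 1 (0.20, adjusted p = 0.152) or 2 of TRAP1 or replicate 1 or 3 of MS78. Of 9 alternative settings, only 4 kept this ERBB3 call at 2 h. Leaving out MS78 replicate 3 also brought calls for ERBB2 (-0.31, adjusted p = 0.0316) and TGFA (0.19, adjusted p = 0.0465).

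**Figure D4:**
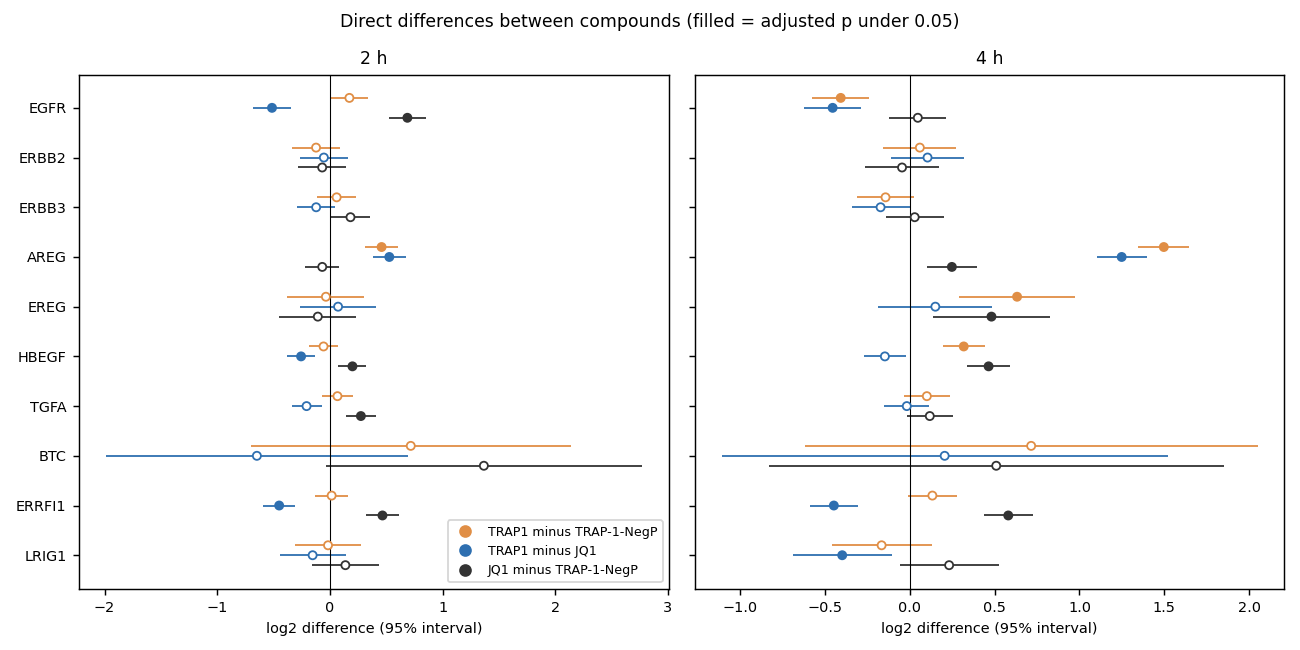
Log2 difference of each member between pairs of compounds at the same time, with 95% intervals; the axes of the 2 h and 4 h panels have different ranges. At 4 h AREG was higher with TRAP1 than with TRAP-1-NegP (1.50) and JQ1 (1.25), while ERRFI1 was higher with JQ1 than with either.

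Between the DMSO libraries of 2 and 4 h, 4 members differed (20.8% of all genes). The 2 times are different sets of libraries, so time cannot be told apart from other differences between those sets. Beside EGFR, TGFA fell by 0.43 ± 0.067 (adjusted p = 2.50e-06), HBEGF by 0.19 ± 0.064 (adjusted p = 0.0253), and ERBB2 rose by 0.29 ± 0.11 (adjusted p = 0.0403). EREG (-0.45, adjusted p = 0.0526) and AREG (-0.19, adjusted p = 0.0627) did not pass, but EREG did under 7 alternative settings, as without both libraries that stood apart (-0.45, adjusted p = 5.47e-05). AREG passed under 4, plain library totals among them (-0.28, adjusted p = 0.00712), and also without DMSO replicate 2 at 4 h (-0.28, adjusted p = 0.0172). The HBEGF call was lost without DMSO replicate 1 or 3 at 2 h or 2 or 3 at 4 h (-0.16, adjusted p = 0.126 without the last), and the ERBB2 call without replicate 1 or 2 at 2 h (0.25, adjusted p = 0.173 without the latter), any single library at 4 h or under plain library totals (0.21, adjusted p = 0.153). The change of each compound's effect from 2 to 4 h was tested as an interaction. It was called in 6 members for TRAP1 (22.0% of all genes), 6 for TRAP-1-NegP (23.2%), 6 for JQ1 (26.0%), 1 for TRAP-1-NegB (2.48%) and 2 for MS78 (15.2%). The AREG effect grew by 1.37 ± 0.11 with TRAP1 (adjusted p = 7.85e-15), by 0.65 ± 0.11 with JQ1 (adjusted p = 3.89e-06) and by 0.33 ± 0.11 with TRAP-1-NegP (adjusted p = 0.0174). The last was lost without DMSO replicate 3 (0.26, adjusted p = 0.0877) or TRAP-1-NegP replicate 1 at 4 h (0.30, adjusted p = 0.0535). The HBEGF effect grew with TRAP1 (0.37 ± 0.089, adjusted p = 0.00132; 0.22 with plain library totals), and for TRAP-1-NegP its change was -0.0034 (95% interval -0.18 to 0.18).

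The EGFR effect became less negative with every compound, by 0.94 ± 0.12 with TRAP-1-NegP (adjusted p = 1.60e-08), 0.80 ± 0.12 with MS78 (adjusted p = 4.04e-06), 0.44 ± 0.12 with TRAP-1-NegB (adjusted p = 0.0225), 0.36 ± 0.12 with TRAP1 (adjusted p = 0.0190) and 0.30 ± 0.12 with JQ1 (adjusted p = 0.0463). All 5 values share the DMSO libraries, in which EGFR fell over the same time. The last 3 were lost with plain library totals (0.38, 0.22 and 0.26; adjusted p = 0.0624, 0.188 and 0.0995). They were also lost without single libraries, most of all DMSO replicate 2 at 4 h: 0.35 (adjusted p = 0.134) for TRAP-1-NegB, 0.28 (adjusted p = 0.0990) for TRAP1 and 0.22 (adjusted p = 0.200) for JQ1. For TRAP1 the others were replicate 1 of TRAP1 at 2 h and replicates 1 and 2 at 4 h. For TRAP-1-NegB they were DMSO replicates 1 and 3 and TRAP-1-NegB replicates 1 and 2 at 2 h, and its replicate 1 at 4 h. For JQ1 they were DMSO replicates 1 and 3 at 2 h and 3 at 4 h, JQ1 replicates 1 and 3 at 2 h and every JQ1 library at 4 h.

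A comparison added after the values were seen set the log2 effect of TRAP1 against the summed effects of TRAP-1-NegP and TRAP-1-NegB. At 2 h it called 3 members (5.00% of all genes) and at 4 h 3 (6.97%). At 4 h AREG exceeded the sum by 1.00 ± 0.11 (adjusted p = 3.13e-10) and HBEGF by 0.33 ± 0.089 (adjusted p = 0.0142), while EGFR was below it (-0.40 ± 0.12, adjusted p = 0.0245). The HBEGF call was lost without TRAP1 replicate 3 (0.28, adjusted p = 0.0555). The EGFR call was lost without DMSO replicate 2 (-0.32, adjusted p = 0.125), TRAP-1-NegB replicate 1, TRAP-1-NegP replicate 3 or TRAP1 replicate 3, on length-scaled counts (adjusted p = 0.0512) and with only these groups fitted (adjusted p = 0.0645). At 2 h EGFR and AREG had the opposite signs: EGFR exceeded the sum (0.61 ± 0.12, adjusted p = 3.79e-04), and AREG was below it (-0.36 ± 0.11, adjusted p = 0.0289). EREG was below the sum at 2 h (-0.97 ± 0.23, adjusted p = 0.00984) and did not pass at 4 h (-0.14, 95% interval -0.62 to 0.34). The AREG value at 2 h was lost without TRAP1 replicate 2 (-0.32), and likewise without replicate 1 or 3 of DMSO, or replicate 1 or 2 of TRAP-1-NegP or of TRAP-1-NegB (adjusted p = 0.0547 to 0.0737 without 1 of these 6). ERRFI1 (0.30 at 4 h, adjusted p = 0.0718) passed without DMSO replicate 3 (0.35, adjusted p = 0.0449).

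Around the members, 14 transcripts known to follow MAPK signalling did not move one way. With TRAP1 at 4 h, 6 rose and 5 fell (22.2% and 24.5% of all genes). With TRAP-1-NegP the counts were 6 and 4 (18.6% and 18.9%), and with JQ1 7 and 4 (24.3% and 24.6%). With plain library totals the counts were 5 and 6, 3 and 4, and 5 and 5. EPHA2, a receptor tyrosine kinase gene, rose by 1.17 ± 0.059 with TRAP1, 0.80 ± 0.059 with TRAP-1-NegP and 1.10 ± 0.059 with JQ1, and ETV5, an ETS factor gene, by 1.33 ± 0.11, 1.27 ± 0.11 and 1.58 ± 0.11. IER3, an early response gene, rose by 0.86 with TRAP1 and 0.27 with TRAP-1-NegP and by no called amount with JQ1 (0.0041, adjusted p = 0.965). DUSP4, a MAPK phosphatase gene, was lower with each compound (-0.85, -0.67 and -0.86), as were CCND1, the cyclin D1 gene (-0.45, -0.55 and -0.47), and PHLDA1 (-0.44, -0.41 and -0.29). At 2 h the list counts were 5 up and 5 down with TRAP1 (15.7% and 14.3% of all genes). They were 5 and 4 with TRAP-1-NegP (16.4% and 13.9%) and 3 and 4 with JQ1 (14.8% and 13.9%).

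Of 9 genes for ligand shedding, 4 rose and 0 fell with TRAP1 at 4 h (22.2% and 24.5% of all genes). The counts were 4 and 0 with TRAP-1-NegP (18.6% and 18.9%), and 5 and 0 with JQ1 (24.3% and 24.6%). With plain library totals these became 2 and 1, 1 and 1, and 2 and 2, so the one-way pattern depends on the scaling. The protease gene ADAM9 rose by 0.42, 0.32 and 0.90 with TRAP1, TRAP-1-NegP and JQ1, ADAM8 by 0.42, 0.34 and 0.26, and FRMD8, a partner of the sheddase complex, by 0.51, 0.28 and 0.19. Of 19 genes for receptor turnover, 4 rose and 4 fell with TRAP1 at 4 h, 5 and 4 with TRAP-1-NegP, and 6 and 6 with JQ1. These turnover counts lie near the same shares of all genes. With plain totals they were 1 and 10, 3 and 6, and 4 and 7. LRIG3, a relative of LRIG1, fell with each (-1.48, -1.29 and -1.36), and so did SOCS2 (-2.16, -1.55 and -0.96) and the kinase gene TNK2 (-0.97, -0.90 and -1.06). PTPN1, a tyrosine phosphatase gene, rose by 0.46, 0.47 and 0.55.

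Of 4 tested genes among the other ERBB receptors and ligands (7 listed), 2 fell with TRAP1 at 4 h, 1 with TRAP-1-NegP, and with JQ1 1 rose and 1 fell (0 and 2, 0 and 1, and 1 and 2 with plain totals). For this list and the next ones, the shares of all genes called higher and lower at 4 h stand beside the counts. They were 22.2% and 24.5% with TRAP1, 18.6% and 18.9% with TRAP-1-NegP, and 24.3% and 24.6% with JQ1. NRG1 fell in all 3, from 41.1 CPM with DMSO to 15.5 with TRAP1 (-1.40 ± 0.12, adjusted p = 6.86e-15), 16.5 with TRAP-1-NegP (-1.31 ± 0.12, adjusted p = 1.40e-13) and 15.7 with JQ1 (-1.38 ± 0.12, adjusted p = 1.09e-14). Among 21 tested genes of other receptor tyrosine kinases (26 listed), 8 rose and 7 fell with TRAP1, 5 and 5 with TRAP-1-NegP, and 7 and 6 with JQ1 at 4 h (5 and 9, 4 and 7, and 7 and 7 with plain totals). EPHB3 rose by 1.38, 1.25 and 1.69 and FGFR1 by 1.39, 1.23 and 1.51, while DDR1 fell (-0.56, -0.33 and -0.61). Of 27 downstream signalling genes, 7 rose and 11 fell with TRAP1, 8 and 5 with TRAP-1-NegP, and 11 and 7 with JQ1 (5 and 15, 6 and 12, and 7 and 10 with plain totals). STAT3, a transcription factor gene, rose by 0.48, 0.48 and 0.60, while the kinase gene SRC fell (-0.57, -0.51 and -0.90).

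Markers of cell type moved with the compounds too. Of 9 epithelial markers at 2 h, 9 rose with TRAP1, 7 with TRAP-1-NegP and 7 with JQ1, with 0 falls (6, 6 and 4 rises with plain totals), while 5 rose and 1 fell with MS78 and 3 and 2 with TRAP-1-NegB. Their sum was 8934 to 8986 TPM with DMSO at 2 h and higher with every compound. It was 10452 to 10921 with TRAP1, 10608 to 10851 with TRAP-1-NegP and 9657 to 10055 with JQ1. With TRAP-1-NegB it was 9565 to 10263 and with MS78 9677 to 11411. Of all genes at 2 h, 15.7% were called higher with TRAP1, 16.4% with TRAP-1-NegP, 14.8% with JQ1, 8.30% with MS78 and 5.08% with TRAP-1-NegB. At 4 h, 8 of the 9 epithelial markers rose and 0 fell with TRAP1, 6 and 0 with TRAP-1-NegP, and 5 and 2 with JQ1 (7 and 0, 5 and 2, and 4 and 3 with plain totals), against 1 and 5 with MS78 and 0 and 0 with TRAP-1-NegB. Their summed level was 11711 to 11973 TPM with TRAP1 at 4 h and 10143 to 11018 with DMSO. The shares of all genes called higher and lower at 4 h were 22.2% and 24.5% with TRAP1, 18.6% and 18.9% with TRAP-1-NegP and 24.3% and 24.6% with JQ1. They were 6.23% and 9.05% with MS78. Of 8 mesenchymal markers 4 were tested, of which 3 rose with TRAP1, 2 with TRAP-1-NegP and 3 with JQ1 (2, 1 and 3 with plain totals), while their sum stayed at most 4.15 TPM. Of 8 haematopoietic and endothelial markers 6 were tested; 1 rose and 2 fell with TRAP1, 1 and 2 with TRAP-1-NegP, and 0 and 1 with JQ1 (0 and 2 with each under plain totals), with a sum of 23.2 to 34.3 TPM made mostly of CD68. The part of these shifts in the members' changes was not tested.

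The members were also set side by side over the groups. Across the 12 group means, HBEGF and ERRFI1 followed each other most closely among the members (Pearson r = 0.95 over 12 groups), ahead of ERRFI1 with LRIG1 (0.85) and ERRFI1 with ERBB3 (0.82). AREG and its chromosomal neighbour EREG had an r of 0.05, and EGFR and AREG -0.62. Over 10325 other genes, the group means most like those of HBEGF were JUN (r = 0.990), MIR22HG (0.985) and MED26 (0.980). For EGFR they were PTPN14 (0.967), NUP155 (0.950) and PRRC2C (0.948), and for AREG C12orf5 (0.936), PDGFA (0.924) and HES2 (0.923). These values are descriptions over 12 points that share the same libraries and scaling.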

How the data were processed

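Polyadenylated RNA of 36 BxPC-3 libraries was sequenced with paired 150-base reads. The authors quantified it with Salmon 1.10.3 in nf-core/rnaseq 3.18.0 against hg38, per the submitters' processing notes; no source used here names the annotation release. Per gene, the authors deposited estimated counts, not normalized for depth; deposited length-scaled estimated counts served as an alternative, and the deposited TPM values (per gene and per transcript) for levels between genes.

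Estimated counts were rounded, and edgeR 4.0.16 (limma 3.58.1, R 4.3.3) was used: filterByExpr with a minimum count of 10, TMM scaling, 1 mean per group and robust quasi-likelihood tests, two-sided, adjusted by Benjamini-Hochberg over the 14988 tested genes within each of 28 comparisons and called under 0.05. The common biological coefficient of variation was 0.135, and SE holds counting error and spread between libraries together. No library pair was identical. The members, the gene lists and the comparisons were chosen with earlier results of these data known. Every member is named; from each list at most 3 genes per direction are, by lowest adjusted p for TRAP1 at 4 h; 1 gene that this rule names is not reported here.

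Alternatives were DESeq2 size factors, the DESeq2 1.42.0 Wald test, no filter, a stricter filter, a replicate block, length-scaled counts, fits of the compared groups alone, leaving out each library or both apart libraries, and plain library totals; the last, and the comparison with summed effects, were added after the data were seen. Fits without a library kept the TMM factors of all 36. On simulated data for TRAP1 against DMSO at 4 h (14988 genes, 100 changed per fold size), 58% of the 1.5-fold changes and 89% of the 3-fold changes were recovered, with 5 calls outside. The changed genes were drawn only from those above a low minimum level with DMSO. The changes had random directions and all other genes kept their DMSO level. The calls outside therefore do not measure false calls where many genes change, as with TRAP1 at 4 h. The shares recovered do not carry over to such data either. Promoters came from RefSeq on GRCh38.p14. Figures used matplotlib 3.10.9 (Python 3.11.15).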

Additional observations from a re-analysis of the deposited data

Results flagged for a closer look

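The following changes of an effect against DMSO between 2 and 4 h passed the test of the difference itself (log2, 4 h minus 2 h), 21 in all, and are given as values. For TRAP1 the effect grew for AREG (1.37), EREG (0.86), ERRFI1 (0.44), HBEGF (0.37) and TGFA (0.37), and became less negative for EGFR (0.36); the EREG effect went from -0.45 to 0.42 and that of TGFA from -0.16, not called, to 0.20. For TRAP-1-NegP the differences were 0.94 for EGFR, -0.46 for ERBB2, 0.45 for ERBB3, 0.33 for AREG, 0.33 for TGFA and 0.32 for ERRFI1. For JQ1 they were 0.30 for EGFR, -0.44 for ERBB2, 0.65 for AREG, 0.79 for EREG, 0.26 for HBEGF and 0.43 for ERRFI1. TRAP-1-NegB differed in EGFR (0.44), and MS78 in EGFR (0.80) and HBEGF (-0.43).

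The values within each gene share the DMSO libraries of both times. Several rest on single libraries. For ERBB2 the TRAP-1-NegP value was -0.36 (adjusted p = 0.0943) without TRAP-1-NegP replicate 3 at 4 h, and was also lost without its replicate 3 or DMSO replicate 2 at 2 h. The JQ1 value for ERBB2 was -0.39 (adjusted p = 0.0733) without DMSO replicate 2 at 2 h, and was also lost without JQ1 replicate 1 or 3 at 2 h or 2 at 4 h. The ERRFI1 value for TRAP-1-NegP was 0.27 (adjusted p = 0.0762) without DMSO replicate 3 at 4 h and was lost without TRAP-1-NegP replicate 3 at 2 h. The HBEGF value for JQ1 was 0.24 (adjusted p = 0.0649) without DMSO replicate 3 at 4 h and was lost without DMSO replicate 1 at 2 h. With plain library totals the TGFA value for TRAP1 was 0.22 (adjusted p = 0.0911), the ERRFI1 value for TRAP-1-NegP 0.28 (adjusted p = 0.0548) and the HBEGF value for JQ1 0.22 (adjusted p = 0.0524).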

How the results depend on the processing

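Of 126 member calls, 82 were kept under every setting and every left-out library. Reversed values were ERBB3 with JQ1 at 2 h on length-scaled counts (-0.12) and, with plain library totals at 4 h, TGFA with TRAP1 against DMSO (-0.065), TRAP-1-NegB (-0.012) and MS78 (-0.038) and ERBB3 with TRAP1 against MS78 (-0.046); plain totals also left 5 member calls for TRAP1 at 4 h in place of 8. The cause was not tested beyond what each setting changes.

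Replicate numbers did not pair the libraries (median r of same-numbered libraries -3.18e-04, in 0 of 21 comparisons all above 0.1). The replicate block lost 2 member calls, EGFR with JQ1 at 4 h (adjusted p = 0.0555) and the change of the EGFR effect of JQ1 (adjusted p = 0.0519), and changed no other call.

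Fitting only the groups compared called 2695 genes for TRAP-1-NegB at 2 h (1641 in the fit of all libraries), 319 for MS78 at 2 h (2390) with 1 member (3), 1112 for TRAP1 against TRAP-1-NegP at 2 h (120), 1036 for TRAP1 against JQ1 at 2 h (298), 3318 for JQ1 against TRAP-1-NegP at 2 h (1935), 1602 for TRAP1 against MS78 at 2 h (3388), 646 with 2 members for the TRAP-1-NegB effect over time (372 with 1), 833 for the MS78 effect over time (2282) and 1844 against summed effects at 2 h (750). The Wald test called 234 genes for TRAP-1-NegB at 4 h (154), 250 for TRAP1 against TRAP-1-NegP at 2 h, 553 for TRAP1 against JQ1 at 2 h, 1137 against summed effects at 2 h and 2 members for the TRAP-1-NegB effect, as did length-scaled counts. With no filter, 248 and 243 genes were called for TRAP-1-NegB at 4 h and TRAP1 against TRAP-1-NegP at 2 h. Without both libraries that stood apart the counts were 364, 481 and, for TRAP1 against JQ1 at 2 h, 700, with 751 and 2 members for the TRAP-1-NegB effect, 1307 for the MS78 effect and 1364 against summed effects at 2 h.

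Leaving out 1 library at a time gave 1138 to 1740 genes for JQ1 against TRAP-1-NegP at 2 h, 1424 to 2496 for MS78 at 4 h, 1151 to 3400 for the MS78 effect, 87 to 156 for TRAP-1-NegB at 4 h, 126 to 292 for TRAP1 against JQ1 at 2 h and 56 to 76 for TRAP1 against TRAP-1-NegP at 2 h. Member calls then ranged from 2 to 3 for DMSO over time, 2 to 4 for JQ1 against TRAP-1-NegP at 4 h, 2 to 4 for the MS78 effect, 1 to 2 for TRAP-1-NegB at 4 h, 0 to 2 for the TRAP-1-NegB effect and 1 to 4 against summed effects at 4 h. BTC, with 6 to 56 counts per library, is limited by its low counts.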
